A study of Mus musculus with 34 samples.

Results

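The genes described here encode the proteins of the cytoplasmic ribosome, measured on 34 Affymetrix expression arrays of mouse muscle and liver. A gene belonged to the set where at least 1 probe set carried its symbol alone and the symbol had the form of a cytoplasmic ribosomal protein name, which gave 47 genes among 12393 with such a probe set. These 47 genes were read by 98 probe sets, and each gene was taken through the probe set of highest mean intensity over all arrays. Tibialis anterior muscle at 3 months came from 4 wild-type (WT) arrays and 4 arrays of MGSKO mice, in which the muscle glycogen synthase gene Gys1 is knocked out. Medial gastrocnemius at 3 months came from 5 WT and 3 MGSKO arrays, and liver at 3 months from 4 WT and 4 MGSKO arrays. Medial gastrocnemius at 8 months came from 5 WT arrays and 5 arrays of GSL30, a line that the labels name as overexpressing. The strain, C57BL6/129SV, is stated for the tibialis arrays. The labels give neither the promoter behind the overexpression nor the sex of the mice, and they do not say whether each array stands for a separate animal, so the p-values measure the spread between these arrays.

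A cytoplasmic ribosome joins a small subunit, which reads the mRNA codon by codon, to a large subunit, which forms the peptide bonds and carries a flexible stalk that recruits translation factors. The mRNAs of its proteins are among the most abundant in most tissues, and they begin with a run of pyrimidines, the terminal oligopyrimidine (TOP) motif, through which the growth-regulating kinase mTOR adjusts how strongly they are translated. Several subunits have a paralog, a second gene for a similar protein, and Rpl3l is known as a form largely restricted to skeletal muscle and heart.

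The set held 19 small-subunit genes (Rps2, Rps3, Rps3a1, Rps4x, Rps6, Rps7, Rps9, Rps10, Rps14, Rps15, Rps18, Rps19, Rps20, Rps24, Rps25, Rps26, Rps27, Rps28 and Rps29). It held 20 large-subunit genes (Rpl4, Rpl6, Rpl7, Rpl7a, Rpl8, Rpl10a, Rpl11, Rpl12, Rpl13a, Rpl14, Rpl19, Rpl22, Rpl27, Rpl27a, Rpl35, Rpl37, Rpl37a, Rpl38, Rpl39 and Rpl41). The stalk was represented by 2 genes, Rplp0 and Rplp2, and the paralogs by 6, namely Rpl3l, Rpl7l1, Rpl22l1, Rpl39l, Rps4l and Rps27l. Rpl3, the partner of Rpl3l, was not a member, because its probe sets list other symbols beside it. Of the 47 genes, 41 had a start site in the RefSeq promoter table of build GRCm38.p6. Within 10 bases before and 40 after the start, a run of at least 8 bases that were all C or T stood at 27 of their 49 starts (55.1%), against 17.4% of 32851 starts of all genes. The letters CCGGAA or TTCCGG, the core of an ETS-factor motif on either strand, stood in the 300-base window (250 before, 50 after) of 27 of the 49 starts (55.1%), against 14.9% of all starts. Such matches describe letters and show no binding.

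The start regions of 5 genes that the results below turn on or that show the pyrimidine run are printed first, from 60 bases before to 25 bases after the RefSeq start (GRCm38.p6, gene strand, 5′ to 3′), with the run of C and T in capitals. They are Rpl22l1 (chr3:28805448-28805532, plus strand), Rps18 (chr17:33955641-33955725, minus strand), Rpl35 (chr2:39005107-39005191, minus strand), Rplp2 (chr7:141447591-141447675, plus strand) and Rps15 (chr10:80292371-80292455, plus strand). Rps15, the member of lowest p in the knockout tibialis, has no such run at this annotated start, so nothing in it is capitalised.
Rpl22l1: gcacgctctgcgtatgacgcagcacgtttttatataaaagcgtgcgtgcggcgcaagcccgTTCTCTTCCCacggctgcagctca
Rps18: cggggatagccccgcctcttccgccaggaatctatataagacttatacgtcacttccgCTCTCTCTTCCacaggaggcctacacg
Rpl35: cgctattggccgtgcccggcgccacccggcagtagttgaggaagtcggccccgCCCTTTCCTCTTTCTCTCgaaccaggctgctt
Rplp2: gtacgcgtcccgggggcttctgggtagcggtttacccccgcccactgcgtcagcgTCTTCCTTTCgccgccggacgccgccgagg
Rps15: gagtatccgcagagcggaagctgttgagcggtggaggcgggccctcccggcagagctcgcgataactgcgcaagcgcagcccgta
The promoter of Rpl3l, the member that differed most between tissues, is shown over 270 bases (chr17:24727576-24727845, plus strand, GRCm38.p6, RefSeq) with its 4 matches to CANNTG, the E-box letters that muscle-determining factors such as MyoD can bind, in capitals. CANNTG reads the same on both strands, and 72.3% of all promoters and 53.1% of the members' promoters held at least 1 match.
Rpl3l: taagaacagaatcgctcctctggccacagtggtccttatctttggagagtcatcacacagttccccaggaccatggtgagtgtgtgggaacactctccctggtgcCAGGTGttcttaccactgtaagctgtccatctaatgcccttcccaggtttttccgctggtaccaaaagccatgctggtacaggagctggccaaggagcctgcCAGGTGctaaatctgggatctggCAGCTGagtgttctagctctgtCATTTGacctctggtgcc

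Values are the deposited intensities, which have no unit beyond the scaling of each array to a trimmed mean of about 1000, and differences are log2 differences of value + 50 with the limma standard error (SE). The limma adjusted p was corrected by Benjamini-Hochberg over 13576 probe sets, and a gene was called under 0.05. Gys1 read 8183.7 to 9958.2 in WT tibialis and 34.2 to 72.5 in MGSKO tibialis, 3954.7 to 6377.6 and 58.1 to 165.0 in gastrocnemius at 3 months, and 5840.0 to 7184.8 in WT against 7895.5 to 10404.4 in GSL30 gastrocnemius, with at most 72.2 in either liver group; whether this probe set lies in the disrupted part of the gene is not stated. Correlations between arrays of a group ran from 0.902 to 0.980. WT gastrocnemius array 2 at 3 months stood apart: the liver-made albumin mRNA Alb read 245380 on it, against 19232 to 55691 on the other 4 arrays of its group, and the sum of 10 muscle-fibre genes reached 1790005, where the lowest array of the group had 370368. The mean log2 level of 10 hepatocyte genes was 11.80 to 15.69 in WT gastrocnemius at 3 months and 15.44 to 15.84 in liver, while tibialis lay at 7.58 to 8.13. In liver the 10 muscle-fibre genes summed to 923.2 to 3354.5, so the labelled tissues were distinct on these markers apart from the hepatocyte signal in gastrocnemius.

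Most of the ribosomal protein probe sets were among the brightest on every array. Between 32 and 36 of the 47 lay above the 95th percentile of all probe sets in each group, and the median member stood at the 98.0th to 98.9th percentile. The other end held 10 genes whose probe set averaged under 2000, namely Rpl12, Rpl14, Rpl27a, Rpl39, Rpl39l, Rpl7l1, Rps4l, Rps6, Rps25 and Rps27. For 7 of these 10, and also for Rpl37 and Rps2, the array has a brighter probe set that lists further symbols beside the gene. Levels of different probe sets are not compared here as amounts of mRNA. Rpl14 and Rpl39l stayed below the filter on dim probe sets (the 40th percentile of mean level) in every comparison, with 43.4 to 413.9 for Rpl14 and 5.4 to 269.8 for Rpl39l over the 34 arrays. Rps4l was also untested in muscle, Rpl12 and Rpl3l in liver, Rpl12 between liver and tibialis, and Rpl27a in the GSL30 comparison.

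The 37 brighter members varied little between arrays of a group. Their pooled within-group SD was 0.12 to 0.41 on the log2 scale, with a median of 0.17. Rpl38, at 0.12, and Rps15 and Rps28, both at 0.13, were among the steadiest, and Rpl22l1 was the most variable of the 37. Among the 10 dim members the SD ran from 0.15 to 0.62 with a median of 0.38, and the highest was that of Rps4l. Over the 6 muscle groups, the highest and lowest group means of a brighter member lay a median of 0.51 log2 units apart, and 16 of the 37 spanned under 0.5. The highest muscle mean was an 8-month gastrocnemius group for 29 of the 37, and the lowest of all 8 group means was a liver group for 19. These counts were not taken over all probe sets, so they may not be particular to the members. The opening of the code in each array title, whose meaning is not stated, changes with every change of tissue or age. Tissue or age therefore cannot be told apart from whatever this code marks. Rps10, a protein of the small subunit, kept its 6 muscle group means within 0.22.

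**Figure D1:**
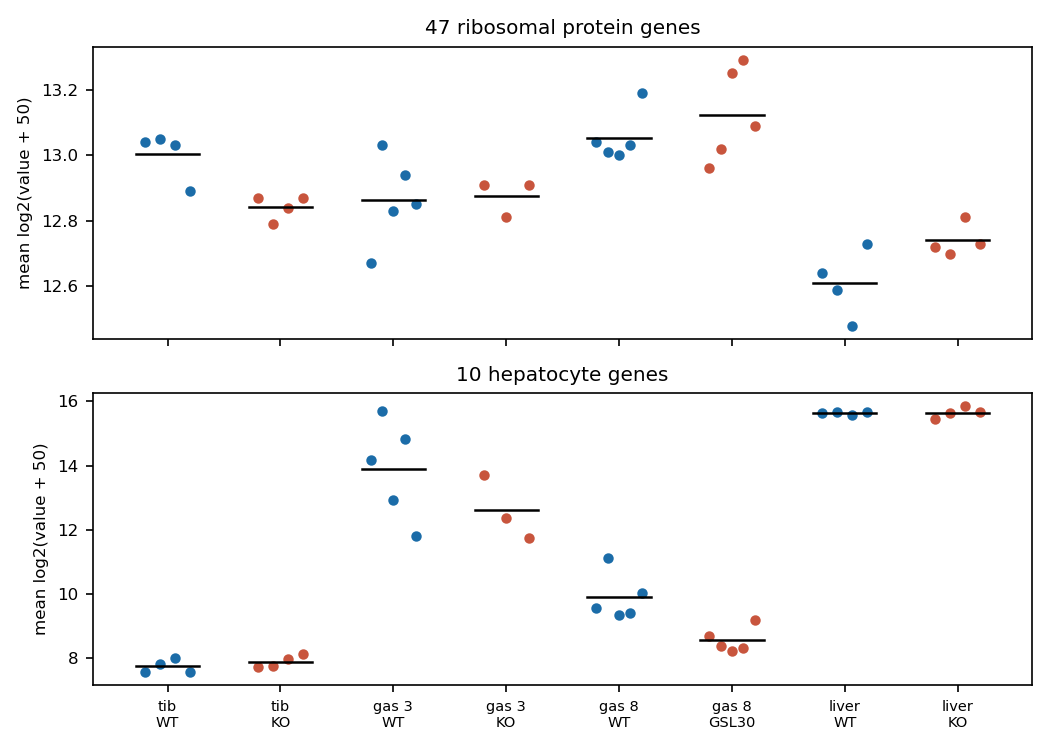
Mean log2(value + 50) per array of the 47 ribosomal protein genes (top) and of 10 hepatocyte genes (bottom), with WT arrays in blue, mutant arrays in red and a bar at each group mean; tib is tibialis, and gas 3 and gas 8 are gastrocnemius at 3 and 8 months. The 4 knockout tibialis arrays (12.79 to 12.87) lie below the 4 WT arrays (12.89 to 13.05), and the hepatocyte genes spread widely in gastrocnemius at 3 months.

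In tibialis the knockout arrays read slightly lower than WT for nearly every ribosomal protein gene, but no single gene passed the test. Of 44 members tested, 0 were called by limma with a background of 1.40% of all probe sets called, and 4 had an unadjusted p under 0.05, all lower in the knockout, against 15.0% of all probe sets. The difference was negative for 40 of the 44, where 43.3% of all probe sets were negative, and the members' median was -0.15, against 0.04 over all probe sets. The negative count was 38 after quantile normalization, 43 with a common median and 34 after cyclic loess, where the median was -0.07. The median intensity of an array was 329.0 to 389.3 in WT, highest on WT array 4, and 363.7 to 414.7 in the knockout. The members are far brighter than most probe sets, and the background was not matched to them in brightness. The part of array scaling in their shift was not tested. Leaving out each array in turn left between 3 and 9 members positive. In bulk tissue, fewer cells of a type and less RNA per cell cannot be told apart.

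Both subunits had this direction. In the small subunit 16 of 19 members were negative with a median of -0.18, and in the large subunit 19 of 19 with a median of -0.14. The stalk genes were close to 0, with -0.04 for Rplp0 and -0.07 for Rplp2, and 3 of the 4 tested paralogs were negative. Of the 37 brighter members, 36 were negative. A further 25 ribosomal protein genes that are no members, because each of their probe sets lists several symbols, were negative in 25 of 25 cases with a median of -0.10. Among 19 members with several tested probe sets, all probe sets were negative for 13, all positive for 1 and mixed for 5. The mean log2 level over the 47 members was 13.04, 13.05, 13.03 and 12.89 in the WT arrays and 12.87, 12.79, 12.84 and 12.87 in the knockout arrays, so WT array 4 lay nearest to the knockout group.

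Rps15, a protein of the head of the small subunit, had the lowest p among the members. It read 25738, 20808, 18296 and 21703 in the WT arrays and 14818, 16526, 15342 and 16400.4 in the knockout arrays. Every knockout array lay below every WT array. The difference was -0.45 (SE 0.12, limma adjusted p = 0.134), a 1.36-fold lower mean, and ran from -0.52 to -0.36 with each array left out. It was called in 2 other fits, with all 34 arrays in 1 model (adjusted p = 0.0158) and with a trended, robust variance (adjusted p = 0.0387). The second Rps15 probe set gave -0.23 (adjusted p = 0.437).

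The other members at an unadjusted p under 0.05 were Rpl13a, Rps4x and Rps27l. Rpl13a, which has a known second role in silencing translation in inflammation, read 21834, 21871, 19961 and 17667 in WT and 15674, 14806, 16789.8 and 18190.0 in knockout arrays, a difference of -0.31 (SE 0.12, limma adjusted p = 0.254). Its groups overlapped through WT array 4 and knockout array 4. Rps4x, the X-linked small-subunit gene, read 27316, 25847, 26086 and 22415 against 22047, 20217, 19159 and 22702, or -0.27 (SE 0.11, limma adjusted p = 0.293), and it overlapped at the same arrays. Rps27l, a paralog of Rps27 known as a p53 target, read 13568, 12601, 13888 and 11678 against 9925, 10319, 10064 and 12222, or -0.28 (SE 0.11, limma adjusted p = 0.285).

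Besides Rps15, the knockout arrays lay wholly below WT for Rpl6 and Rps2, so 3 of the tested members were non-overlapping in this direction, against 4.88% of all probe sets. Rpl6 read 16109, 18939, 15876 and 15144 in WT and 14148, 14558, 13204 and 14519.6 in the knockout. Rps2 read 37571, 35233, 33725 and 32934 in WT and 32016, 31287, 30339 and 31121 in the knockout. In each of these genes the WT and knockout arrays were separated by a narrow gap. Rps6, the substrate of the mTOR-dependent S6 kinase, gave -0.33 (SE 0.20, limma adjusted p = 0.466) from a dim probe set, with 763.7, 646.5, 635.7 and 371.6 in WT and 527.0, 400.1, 489.7 and 421.5 in knockout arrays that overlapped. Rpl41, a very short basic peptide, gave -0.31 (SE 0.23, limma adjusted p = 0.553), but the mean of its probe sets gave 0.07, so its direction is not settled. At the other end stood Rps27 (0.16, adjusted p = 0.681), Rps25 (0.04), Rpl7l1 (0.02) and Rps10 (0.01), of which the last 3 turned negative under some scalings.

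Markers of other cells and fibres differed between the same groups. The summed level of 6 slow-fibre genes was 9558.5 to 14418 in WT and 30067 to 37337 in knockout tibialis, although 4 of the 6 had a negative difference and 1 of the 6 was called. The 6 endothelial genes summed to 10594.7 to 12710.6 in WT and 14724.7 to 17559.6 in the knockout, with 6 of 6 positive and 0 called by limma (6 at an unadjusted p under 0.05). Of 6 fibroblast and tendon genes 5 had a negative difference (median -0.29) and 1 was called lower, with overlapping sums of 64018.3 to 85126.8 in WT and 59570.3 to 68227.8 in the knockout. Both adipocyte genes tested were negative and neither was called. The hepatocyte mean was 7.58 to 8.00 in WT and 7.72 to 8.13 in knockout arrays (exact two-sided permutation p = 0.314, adjusted over the 4 mutant comparisons 0.419). The part of these cell and fibre markers in the members' shift was not tested.

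**Figure D2:**
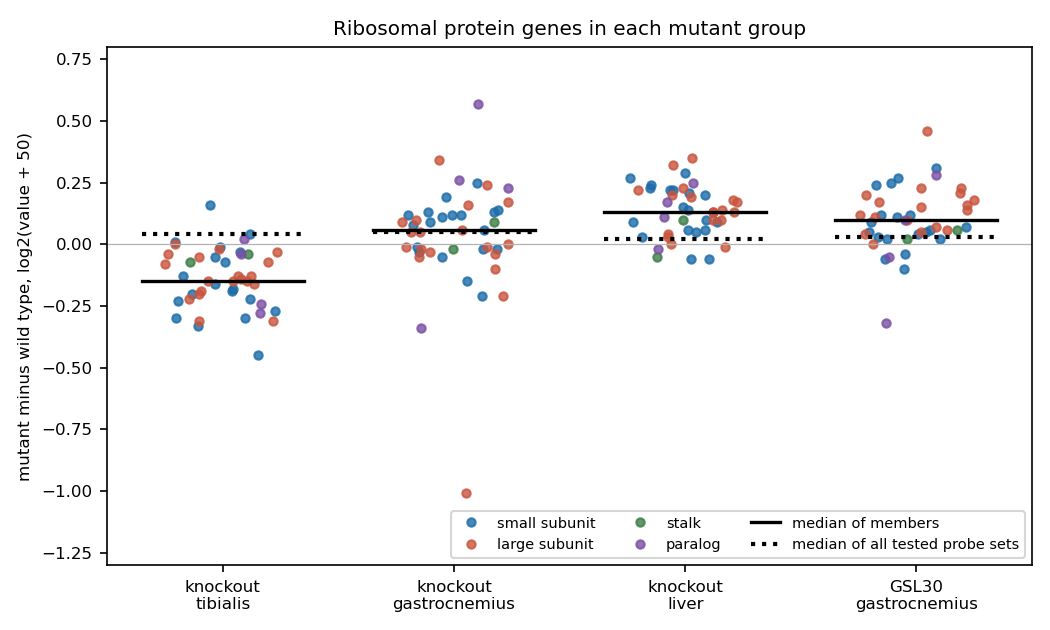
Log2 difference of value + 50, mutant minus WT, for each tested ribosomal protein gene in the 4 mutant comparisons, coloured by class, with a solid line at the members' median and a dotted line at the median of all tested probe sets. The points lie mostly below 0 in the knockout tibialis (median -0.15) and mostly above 0 in the knockout liver (0.13) and GSL30 gastrocnemius (0.10).

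In the gastrocnemius of knockout mice the ribosomal protein genes showed no common direction. Of 44 tested, 0 were called by limma, with 0.147% of all probe sets called, and 2 had an unadjusted p under 0.05 (Rpl3l and Rpl27a) against 11.4% of all probe sets. The difference was positive for 25 (56.5% of all probe sets) and negative for 19, and the median of 0.06 was next to that of all probe sets, 0.05. The direction depended on the scaling: 38 of 44 were positive with a common median and 20 of 44 after cyclic loess. Without WT array 2, the array that stood apart, 34 were positive and the median was 0.11.

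Rpl3l, the muscle paralog of the large-subunit protein Rpl3, was the member furthest up. It read 10553, 10678, 14768, 9936.5 and 11269.6 in the WT arrays and 18929.7, 16092.5 and 15569.8 in the knockout arrays, and each knockout array was above all 5 WT arrays. Non-overlap in this direction was found for 7.26% of all probe sets. The difference was 0.57 (SE 0.16, limma adjusted p = 0.280), a 1.48-fold higher mean. It was called with all 34 arrays in 1 model (adjusted p = 0.0143). Without the 4 arrays of high hepatocyte signal it was 0.29 (adjusted p = 0.565). That fit kept only WT arrays 3 and 5 and knockout arrays 2 and 3, and it called 4 probe sets in all. With the hepatocyte mean as a covariate the Rpl3l difference was 0.52 (adjusted p = 0.366).

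Rpl27a was the member furthest down, from a dim probe set. It read 286.1, 1049.7, 342.4, 483.5 and 334.5 in WT and 120.0, 210.3 and 286.4 in knockout arrays, or -1.01 (SE 0.39, limma adjusted p = 0.394). WT array 2 carried the highest value by far, and the groups overlapped. Rpl7l1, a paralog of Rpl7 that takes part in early large-subunit assembly, read 880.4, 762.1, 911.1, 820.9 and 825.4 in WT and 504.3, 739.8 and 735.5 in the knockout (-0.34, SE 0.15, limma adjusted p = 0.441). All 3 knockout arrays were below the WT arrays, a separation in this direction that 2.72% of all probe sets showed. The remaining extremes were Rps7 and Rpl11, both at -0.21, and Rps25 (0.25), Rps27l (0.26) and Rpl39 (0.34), with adjusted p of 0.557 or more for each. Without the 4 arrays of high hepatocyte signal Rpl11 gave 0.07 and Rps27l -0.03.

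The hepatocyte mean differed widely here, at 11.80 to 15.69 in WT and 11.75 to 13.69 in knockout arrays (exact two-sided permutation p = 0.250, adjusted 0.419, smallest possible 0.0179). The 6 slow-fibre genes, all positive, summed to 26366 to 43928 in WT and 60690.4 to 82400.4 in the knockout, and the endothelial genes, with 5 of 6 positive, to 8641.4 to 10711.4 and 13207 to 14678. None of these 12 markers was called by limma, and 9 had an unadjusted p under 0.05. Their part in the values of Rpl3l and Rpl7l1 was not tested.

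In liver, where Gys1 read no more than 72.2, most ribosomal protein genes read slightly higher in the knockout mice, again without a single call. Of 43 tested, 0 were called by limma, where 0.00737% of all probe sets were called, and 2 had an unadjusted p under 0.05 against 8.33% of all. The difference was positive for 37 of 43, against 55.0% of all probe sets, with a median of 0.13 against 0.02. Small-subunit members were positive in 17 of 19 cases and large-subunit members in 16 of 18. With each array left out the median was 0.07 to 0.18, lowest without WT array 3, and the count of positive members was 31 to 40. That count was 33 with a common median and 39 after cyclic loess. Of the 25 non-member ribosomal protein genes, 24 were positive, with a median of 0.11.

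Rps9 and Rpl22 were the members at an unadjusted p under 0.05. Rps9, a small-subunit protein linked to decoding accuracy, read 12193, 11359, 11504 and 12459.8 in WT and 13605, 14059, 13597 and 14693 in knockout livers, a difference of 0.24 (SE 0.10, limma adjusted p = 0.573). Its groups did not overlap, and neither did those of Rpl11, a large-subunit protein that binds Mdm2, which read 14516, 15438, 12702 and 15456 against 16142, 15976, 17988 and 16490.3 (0.20, limma adjusted p = 0.663). These 2 of the tested members stood against 2.76% of all probe sets. Rpl22 read 3412, 3280.4, 3074 and 3953 in WT and 3728, 3903, 5319 and 4267 in the knockout (0.32, SE 0.14, limma adjusted p = 0.586), and its second probe set gave -0.06.

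The highest fold changes in liver came from dim probe sets. Rpl39 read 780.6, 1012.8, 617.0 and 472.1 in WT and 531.4, 1065.9, 1105.5 and 1022.5 in the knockout (0.35, limma adjusted p = 0.764), with overlapping groups, and gave 0.18 without WT array 4. Rps27 gave 0.29, but 0.00 without knockout array 4, which read 1411.4 where the other knockout livers had 488.4 to 762.9. Rps6 gave 0.27 with WT array 4 at 331.9 and the other WT arrays at 762.0 to 791.7, and it was -0.01 without that array. Rps10 and Rps25 (both -0.06), Rplp0 (-0.05) and Rpl7l1 (-0.02) were lowest. Rpl3l read 20.1, 18.3, 19.0 and 21.1 in WT and 26.9, 23.0, 18.2 and 33.0 in knockout livers and was too dim to be tested. The hepatocyte mean averaged 15.64 in WT and 15.65 in knockout livers (exact two-sided permutation p = 0.971, adjusted 0.971).

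GSL30 gastrocnemius at 8 months also read slightly higher than its WT group for most members. Of 43 tested, 0 were called by limma, while 4.31% of all probe sets were called, and 1 had an unadjusted p under 0.05 against 21.4% of all probe sets. The difference was positive for 37 members, against 53.5% of all probe sets, with a median of 0.10 against 0.03. After quantile normalization 29 of 43 were positive with a median of 0.05, with a common median or after cyclic loess 32, and among the 25 non-member ribosomal protein genes 18 were positive with a median of 0.03. With each array left out the median was 0.05 to 0.14, lowest without GSL30 array 4, and 33 to 40 members were positive. No tested member separated the groups without overlap, which 7.38% of all probe sets did. Large-subunit members were positive in 17 of 18 cases with a median of 0.15, and small-subunit members in 16 of 19 with a median of 0.06.

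Rpl39, a small basic protein lining the peptide exit tunnel, was the member with the lowest p, from a dim probe set. It read 671.0, 997.3, 797.1, 1032.1 and 735.9 in WT and 1243.1, 1063.8, 1293.0, 901.9 and 1402.0 in GSL30 arrays, or 0.46 (SE 0.16, limma adjusted p = 0.112). GSL30 array 4 fell within the WT range, and the other GSL30 arrays were above it. Rpl3l read 11849, 12974, 16704, 16449 and 15368 in WT and 16088, 17473, 16716, 17735 and 20310.2 in GSL30 (0.28, SE 0.13, limma adjusted p = 0.239), so the lowest GSL30 array lay within the WT range. Rps27 gave 0.31, but 0.12 without GSL30 array 1, at 1599.8 where the other GSL30 arrays had 716.9 to 854.4. Rps7 gave 0.27 (adjusted p = 0.413), Rps4x 0.24 and Rpl22 0.23. The lowest were Rpl22l1 (-0.32, SE 0.26, limma adjusted p = 0.506), Rps19 (-0.10), Rps9 (-0.06) and Rps27l (-0.05). Without GSL30 array 1 Rpl22l1 gave -0.08.

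In this comparison the hepatocyte mean was lower in GSL30, 8.24 to 9.20 against 9.35 to 11.11 in WT (p = 0.00794 by exact two-sided permutation, which is the lowest that 5 against 5 arrays allow, adjusted 0.0317). All 6 slow-fibre genes were called lower, with sums of 39645.2 to 49514.6 in WT and 16555.6 to 31464 in GSL30. Of 6 endothelial genes 3 were called lower, with sums of 13006 to 15335 in WT and 8270.1 to 9902.3 in GSL30. All 6 endothelial differences were negative at an unadjusted p under 0.05. Of the 6 fibroblast and tendon genes, all negative, 1 was called, and of the 3 adipocyte genes, all negative, 0 were called (3 at an unadjusted p under 0.05). Without the 3 WT arrays of highest hepatocyte signal 37 members were positive with a median of 0.15, and with the hepatocyte mean as a covariate 32 were. The part of the fibre, endothelial, fibroblast and adipocyte markers was not tested.

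The effects were next compared with each other. The knockout effect in gastrocnemius minus that in tibialis was positive for 39 of 44 members (51.9% of all probe sets) with a median of 0.21 against 0.02, and 0 members were called by limma, with 0.0147% of all probe sets called. At an unadjusted p under 0.05 there were 4 (10.0% of all probe sets), Rps15 (0.58, adjusted p = 0.355), Rpl3l (0.61), Rps27l (0.54) and Rpl27a (-0.99). After cyclic loess this median was 0.03, with 26 of 44 positive. The effect in liver minus that in tibialis was positive for 40 of 44 (47.3% of all probe sets) with a median of 0.28 against -0.02 and 0.18 after loess. Here too 0 were called, with 0.744% of all probe sets called, and 8 had an unadjusted p under 0.05 (12.5% of all probe sets), all higher: Rps3, Rps4x, Rps9, Rps15, Rps18, Rps26, Rps27l and Rpl19. Rps15 again had the lowest adjusted p, 0.137 with a difference of 0.54. Rps9 passed (adjusted p = 0.0407) when WT tibialis array 4 was left out. The GSL30 effect minus the knockout effect in gastrocnemius was positive for 22 of 43 members (47.6% of all probe sets), for 16 with a common median and for 33 after cyclic loess. Its median was 0.00, limma called 0 members (2.30% of all probe sets), and 1, Rpl7l1 (0.44, adjusted p = 0.202), had an unadjusted p under 0.05 (17.7% of all probe sets).

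Between wild-type tissues a smaller share of the members than of all probe sets was called. The 3 largest differences from tibialis to liver were those of the paralogs Rpl3l, Rps4l and Rpl22l1. The codes in the array titles of WT liver and WT tibialis begin differently, and the labels do not state their meaning. Tissue and any batch these codes mark therefore cannot be told apart. The RNA amount also went with tissue, about 10 µg for liver and 5 µg for tibialis. The log2 3′ minus 5′ signal of the Gapdh control was -0.39 to -0.14 in WT liver and -0.16 to 0.06 in WT tibialis. That of the Actb control was 0.15 to 0.52 and -0.08 to 0.41. The part of RNA amount and of these signals in the differences was not tested. Of 44 members tested, 25 were called by limma, 7 higher and 18 lower in liver, where 69.4% of all probe sets were called, 28.2% higher and 41.1% lower. The median was -0.23 against -0.18 over all probe sets, and the split was 5 higher and 23 lower after quantile normalization, 8 and 13 with a common median, and 11 and 12 after cyclic loess. The median, at -0.35, -0.07 and 0.05 in these 3 scalings, had no settled direction. Of the members described next, Rpl3l, Rps4l, Rpl22l1, Rpl37, Rpl27a, Rpl7l1, Rpl11, Rps7, Rps20, Rps25, Rps27 and Rplp2 kept their direction in all 3, and of these Rpl11 alone lost its call in 1 of them (quantile normalization, adjusted p = 0.0527).

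Rpl3l was bright in every muscle group and dim in liver. It read 19152, 21087, 19559.7 and 16874 in WT tibialis and 20.1, 18.3, 19.0 and 21.1 in WT liver, a difference of -8.10 (SE 0.11, limma adjusted p = 2.84e-12), or 275-fold on the value + 50 scale, which understates a change from so low a level. Rpl3l passed the filter through tibialis alone. Its group means were 19168 in WT and 18638 in knockout tibialis, 17664.5 in GSL30, 16864 in knockout gastrocnemius, 14669 in WT gastrocnemius at 8 months and 11441 at 3 months, and 25.3 and 19.6 in knockout and WT liver. Within muscle the arrays of neighbouring groups in that order overlapped in every case, and no muscle array came near a liver array.

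Rps4l ran the other way. This autosomal paralog of Rps4x read 156.1, 133.4, 223.4 and 92.7 in WT tibialis and 1035.1, 738.5, 1091.2 and 886.5 in WT liver, a difference of 2.32 (SE 0.20, limma adjusted p = 2.27e-06) on the scale of value + 50. It passed the filter through liver alone and lay below the filter in muscle, so the size of this difference is not settled. In the 6 muscle groups it read 34.6 to 386.4, and in knockout liver 1661.8, 798.1, 775.9 and 987.0, which overlapped with WT liver. Rpl22l1, the paralog of Rpl22 that can stand in for it, read 13473, 5915, 14205 and 11172 in tibialis and 3662, 3331, 2372 and 4544 in liver, a fall of 1.63 on the log2 scale (SE 0.29, limma adjusted p = 0.000457). Its tibialis arrays were widely spread, but the lowest was above every liver array. Rpl22 itself fell by 0.76 with this probe set (adjusted p = 0.00323), while its second probe set gave 0.02. Rpl7l1 was higher in liver (0.39, adjusted p = 0.00825), and Rps27l gave 0.21 (adjusted p = 0.238) with its brightest probe set but 0.69 and 0.56 with its other 2 (adjusted p = 0.000200 and 0.000973).

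**Figure D3:**
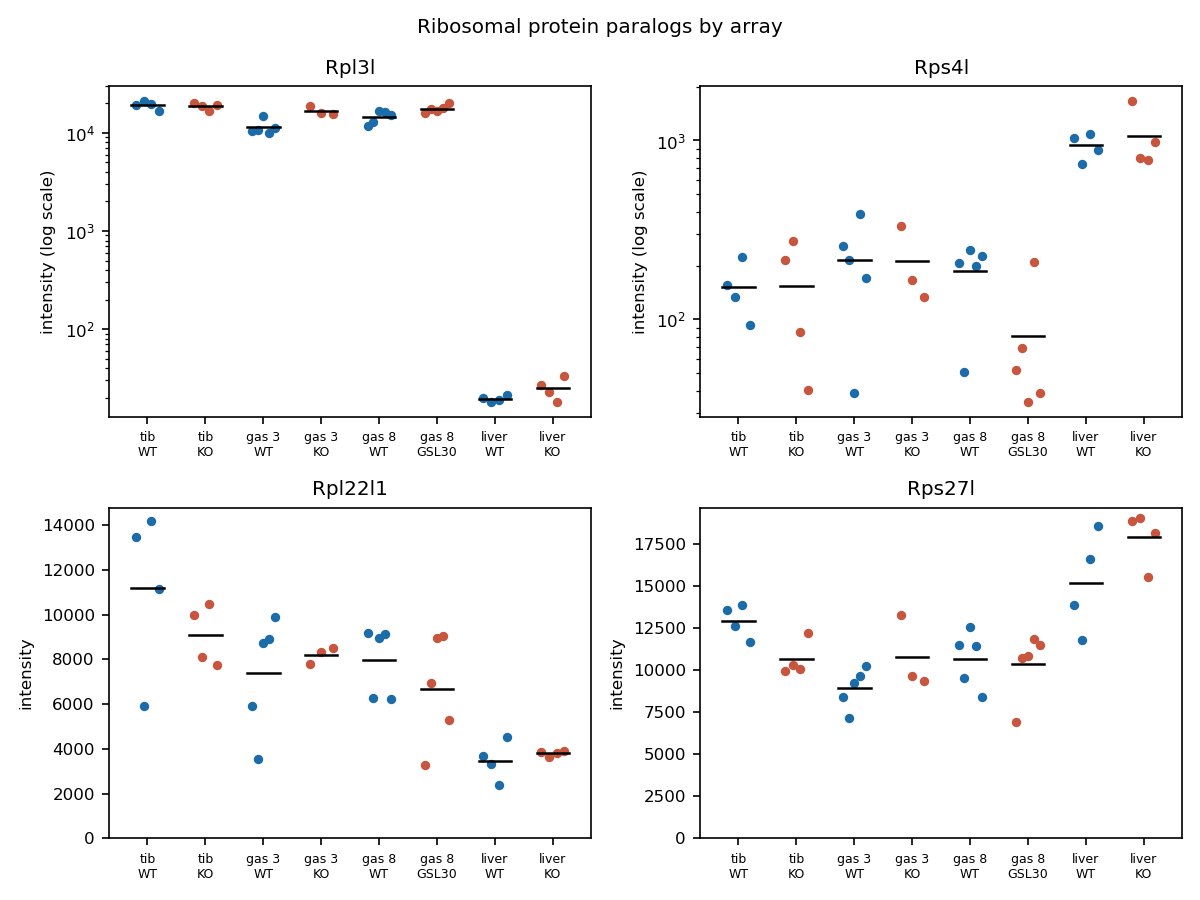
Intensity per array of the paralogs Rpl3l and Rps4l (log axes) and Rpl22l1 and Rps27l (linear axes) in all 8 groups, WT in blue and mutant in red, with a bar at each group mean. Rpl3l drops from 9936.5 or more in muscle to 33.0 or less in liver, whereas Rps4l is at 738.5 or more in liver and at 386.4 or less in muscle.

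Both stalk genes were lower in liver. Rplp2, an acidic stalk protein, read 27749, 30975, 27368 and 27989.5 in tibialis and 14858, 16495, 14401 and 16507 in liver (-0.87, SE 0.11, limma adjusted p = 3.91e-05). Rplp0, the base of the stalk, read 22115, 24004, 22689 and 23439.8 in tibialis and 16985, 13744, 13316 and 19225 in liver (-0.56, SE 0.14, limma adjusted p = 0.00442). Neither gene's groups overlapped. In the small subunit 9 of 19 tested members were called lower and 2 higher, where 41.1% of all probe sets were called lower and 28.2% higher. The lowest of these were Rps20 (-0.97, adjusted p = 0.000133) and Rps25 (-0.85, adjusted p = 0.00140). In the large subunit 5 of 18 were called lower and 3 higher, with Rpl37 (-1.01, SE 0.14, limma adjusted p = 9.10e-05) at one end and Rpl27a (1.05, SE 0.20, limma adjusted p = 0.000732) at the other. Rpl27a, Rps25 and Rps27 were read by dim probe sets. For these genes and for Rpl37 the array has a brighter probe set that lists further symbols, whose difference is not given here. It averaged 17106.8 for Rpl27a and 17462.8 for Rpl37, where the probe sets used averaged 349.4 and 3075.4. Rpl27a read 183.7, 323.1, 235.5 and 261.5 in tibialis and 484.4, 636.4, 432.0 and 765.5 in liver. Besides Rpl27a and the paralogs, the members called higher in liver were Rps27 (0.45), Rpl11 (0.41), Rps7 (0.37) and Rpl19 (0.29). The groups of Rps27 overlapped by 1 array each, and a second probe set of Rps7 gave -0.35 (adjusted p = 0.146), so the direction of Rps7 is uncertain.

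**Figure D4:**
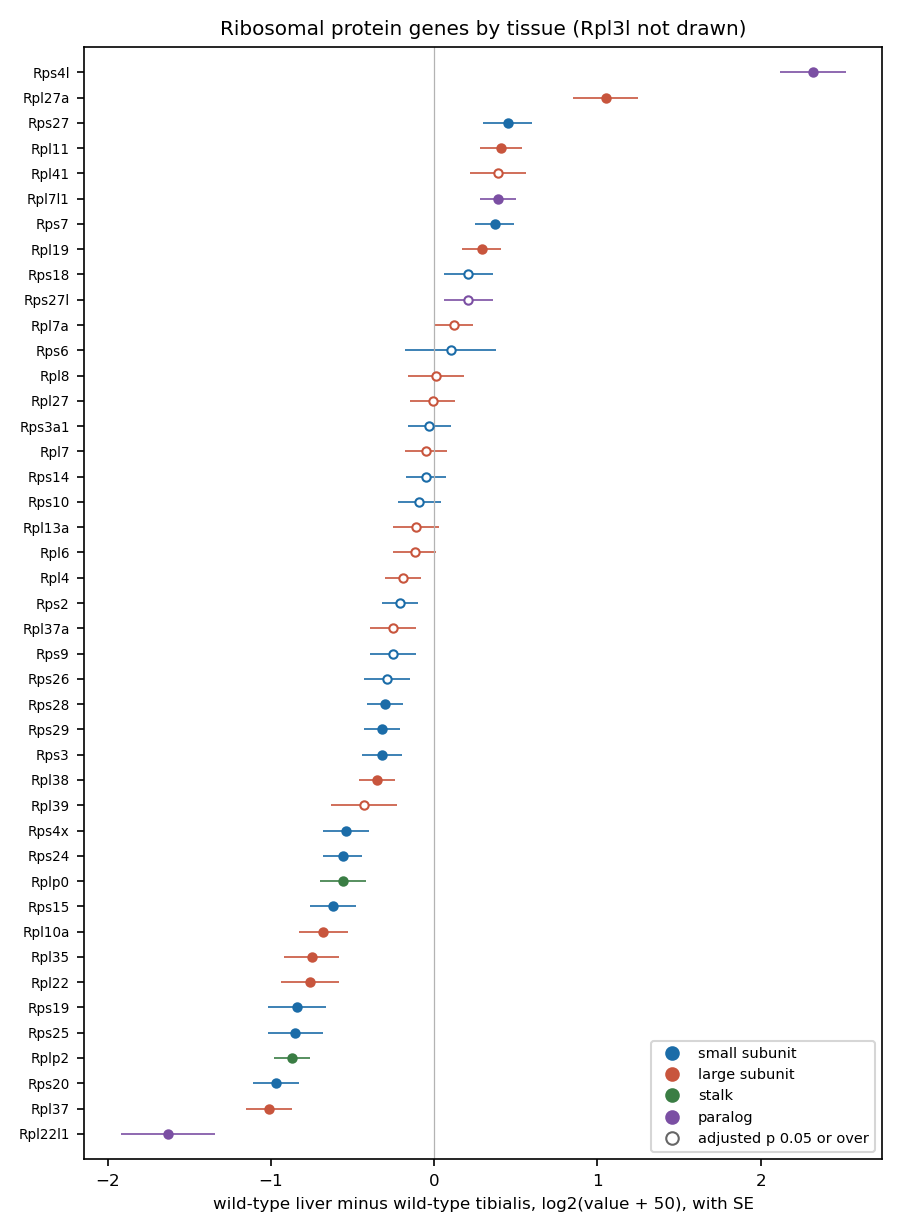
Log2 difference of value + 50, WT liver minus WT tibialis, with its standard error for each tested ribosomal protein gene apart from Rpl3l (-8.10), which lies off the scale; open points did not pass the adjusted p of 0.05. Most filled points lie below 0, Rps4l (2.32) and Rpl27a (1.05) are highest, and Rpl22l1 (-1.63) and Rpl37 (-1.01) are lowest.

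WT gastrocnemius and WT tibialis, both at 3 months and also with different title codes, differed in 8 of 44 members by limma, with 27.0% of all probe sets called (12.2% higher and 14.8% lower). Rpl3l (-0.75, SE 0.14, adjusted p = 0.00421), Rps19 (-0.64, SE 0.19, adjusted p = 0.0294), Rps27l (-0.54), Rps26 (-0.51), Rps15 (-0.49), Rpl10a (-0.39) and Rpl37 (-0.39) were lower in gastrocnemius and Rps27 (0.48, adjusted p = 0.0392) higher. The median was -0.15 against -0.05 over all probe sets, -0.28 with a common median and 0.05 after cyclic loess. All 5 gastrocnemius values of Rpl3l (9936.5 to 14768) lay below all 4 of tibialis (16874 to 21087), and 9 tested members in all separated the groups this way, against 15.0% of all probe sets. Quantile normalization left 4 calls, all lower (Rpl3l, Rps19, Rps26 and Rps27l), cyclic loess 4, of which Rpl3l was lower and Rpl41, Rps27 and Rps7 higher, and a common median 11, all lower. Without the 3 gastrocnemius arrays of high hepatocyte signal only Rps19 was called of the 44 members, and Rpl3l gave -0.56 (adjusted p = 0.0652). The gastrocnemius arrays kept there, 3 and 5, still had hepatocyte means of 12.92 and 11.80, against 7.58 to 8.00 in tibialis. With each array left out in turn, Rpl3l and Rps27l were called in 9 of 9 fits and Rps26 and Rps15 in 8. Rps19, Rpl37 and Rps27 were called in 2 of 9 each. All 6 slow-fibre genes were higher in gastrocnemius, with sums of 26366 to 43928 against 9558.5 to 14418. Of the 6 fibroblast and tendon genes 5 were lower (median -1.38), with sums of 42996.9 to 60274.8 in gastrocnemius and 64018.3 to 85126.8 in tibialis. Both adipocyte genes tested were higher (median 1.19), with sums of 6907.8 to 14433.9 and 2007.5 to 6981.1 that overlapped. The log2 3′ minus 5′ signal of the Actb control probe sets, a measure of RNA integrity, was -1.19 to -0.26 in gastrocnemius and -0.08 to 0.41 in tibialis. The part of these fibre and cell markers and of this signal in the calls was not tested.

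Other genes of protein synthesis were set beside the members from lists of translation and growth-signalling genes. In the knockout tibialis limma called 0 of 28 initiation factors, 12 elongation factors and other TOP mRNAs, 41 ribosome biogenesis genes and 74 mitochondrial ribosomal proteins. Their medians were -0.06, -0.07, -0.04 and 0.03, and 4, 3, 5 and 5 of them had an unadjusted p under 0.05, against 1.40% of all probe sets called and 15.0% at that unadjusted p. Among 21 genes of mTOR and S6 kinase signalling 3 passed. Mtor itself, the kinase that controls TOP mRNA translation, rose from 1370.8 ± 195.4 to 2358.5 ± 203.0 (SD, n = 4 each; 0.77, SE 0.13, limma adjusted p = 0.0210). Ddit4l, an inhibitor of mTOR signalling in muscle, fell from 9411 ± 761 to 4422.4 ± 569.9 (SD, n = 4 each; -1.09, SE 0.12, limma adjusted p = 0.00289), and Mycn, a growth-promoting transcription factor, fell by 1.88 (adjusted p = 0.0328). With each array left out in turn, Ddit4l was called in 8 of 8 fits, and Mtor and Mycn in 2 of 8 each. With a common median Mtor was not called (adjusted p = 0.0687). Ddit4l also fell in the knockout gastrocnemius, from 7758.7 ± 1751.1 (n = 5) to 2924.9 ± 263.9 (n = 3; -1.37, SE 0.18, limma adjusted p = 0.0392), the 1 gene called in these lists there, with 0.147% of all probe sets called. Ddit4l was called there after quantile normalization (limma adjusted p = 0.0443) and cyclic loess (0.0179), and with the hepatocyte mean as a covariate (-1.47, adjusted p = 0.0312). It was not called with a common median (-1.31, adjusted p = 0.0513) or without the arrays of high hepatocyte signal (-1.56, adjusted p = 0.126). The latter fit kept only WT arrays 3 and 5 and knockout arrays 2 and 3, and it called 4 probe sets in all. Of the 8 fits that left out 1 array, it was called in 2. In the knockout liver limma called 0 of 28 initiation factors, 12 elongation factors and other TOP mRNAs, 40 biogenesis, 21 signalling and 74 mitochondrial ribosomal protein genes, of which 2, 1, 3, 4 and 2 had an unadjusted p under 0.05, where 0.00737% of all probe sets were called and 8.33% had such a p.

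In GSL30 gastrocnemius 7 genes of these lists were called, where 4.31% of all probe sets were. Of 28 initiation factors 2 rose, the eIF2B subunits Eif2b4 (0.60, adjusted p = 0.0200) and Eif2b1 (0.58, adjusted p = 0.0282). Of 40 ribosome biogenesis genes 2 rose, Taf1b, a factor of RNA polymerase I (0.60, adjusted p = 0.0224), and Fbl, the fibrillarin that methylates ribosomal RNA (0.62, adjusted p = 0.0309). Tsc2, a brake on mTOR, rose by 0.87 (adjusted p = 0.00636) as the 1 of 21 signalling genes called, and Mrps12 by 0.52 (adjusted p = 0.0254) as the 1 of 74 mitochondrial ribosomal proteins. Among 12 elongation factors and other TOP mRNAs, Vim, the intermediate filament vimentin, fell by 0.57 (adjusted p = 0.0316). With the hepatocyte mean as a covariate all 7 calls were lost (adjusted p 0.160 to 0.259), as was every call among the 13576 probe sets. The hepatocyte mean did not overlap between these groups, so this covariate and genotype are hard to tell apart. In that fit the genes that rose had differences of 0.50 to 0.81, and Vim had -0.58. Without the 3 WT arrays of highest hepatocyte signal the 7 calls were also lost (adjusted p 0.121 to 0.348), and 2 probe sets were called in all. With these fewer WT arrays the differences were 0.51 to 0.78 for the genes that rose and -0.42 for Vim. With a common median Eif2b1, Mrps12 and Vim were not called. Tsc2 was called in all 10 fits that left out 1 array, and the other 6 genes in 2 to 8 of them.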

How the data were processed

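Values are the deposited intensities of the authors, linear, with 1 value per probe set and array. Each of the 34 arrays had a mean of 1000.30 to 1000.50 after the lowest and highest 2% of probe sets were dropped, as read from the values, and medians of 296.1 to 440.4. The summarising program was not given in the sources used here, and the number of arrays limits the precision. The labels' protocols state TRIzol and RNeasy extraction and about 5 µg of RNA for muscle or 10 µg for liver.

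Of 22690 probe sets, 64 controls were left out. Per the supplied annotation, 20393 carry 1 symbol, 691 several and 1606 none. A limma 3.58.1 model (lmFit, eBayes; R 4.3.3, with version 1.17.8 of data.table) of log2(value + 50) was run on the arrays of each comparison, without probe sets whose mean level was under the 40th percentile. Scripts were tested on simulated data. Effects were compared as contrasts of 4 groups, and array means by exact permutation. The log2 3′ minus 5′ signal of the Gapdh and Actb controls gave an adjusted exact permutation p of 0.457 or more in each mutant comparison. The lowest unadjusted p possible was 0.0179 to 0.0286 in the knockout comparisons and 0.00794 in GSL30, so no single difference could pass 0.05 after adjustment. In gastrocnemius at 3 months the Gapdh signal was -0.29 to 0.34 in the knockout and -0.32 to -0.26 in WT (unadjusted exact permutation p = 0.0714).

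Earlier results of these data were known when the members and gene lists were chosen. Members were named where called, where among the 4 highest or lowest folds (6 among called genes between tissues), or as paralog, stalk or untested genes. Others, such as those at an unadjusted p under 0.05, Rps18, Rpl35, Rpl19 and Mycn, were named after their values were seen. Alternatives were quantile, common-median and cyclic loess scaling, pseudocounts of 1 and 200, another filter (none, or the 60th percentile), a fit to all 34 arrays, a robust trended variance, array weights, the mean of all probe sets, each array left out and, for gastrocnemius, the hepatocyte mean as a covariate or arrays above 13 (3 months) or 9.5 (8 months) left out. Leaving out 15 members whose probe set name marks possible cross-hybridisation, leaving out members under 2000, the 25 other ribosomal protein genes, and these alternatives for the gene lists were added after the data were seen.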

Additional observations from a re-analysis of the deposited data

Results flagged for a closer look

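Among 203 groups of 4 or 5 array values examined, 17 had an array far from the others of its group by Dixon's criterion, and chance gives about 1 in 20. WT tibialis array 4 recurred: the members' mean log2 level was 12.89 on it and 13.03 to 13.05 on the other 3 arrays, Rps9 read 10960.2 (others 15158.9 to 15548.4), and Rps26 read 15088.7 (others 18969.1 to 19715.1). WT gastrocnemius array 5 at 8 months had a mean of 13.19, where the other 4 had at most 13.04, with Rpl13a at 24720.7 (others 18251.3 to 19758.3) and Rps20 at 18279.6 (others 11760.6 to 13284.7), while Rps4l on array 2 of that group read 50.9 (others 199.2 to 244.1).

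In WT gastrocnemius at 3 months, array 2, which also carried the highest albumin, read 339.8 for Rpl39 (others 719.7 to 897.2) and 10257.7 for Rps19 (others 5993.4 to 6913.4), and array 3 read 3474.1 for Rpl37 (others 2928.3 to 3077.2). GSL30 array 1 read 1599.8 for Rps27 (others 716.9 to 854.4) and 6896.8 for Rps27l (others 10694.4 to 11821.5), and GSL30 array 4 read 20450.9 for Rps9 (others 13630.2 to 14893.1). In liver, Rps6 was 331.9 on WT array 4 (others 762.0 to 791.7). Among the knockout livers, Rpl39 was 531.4 on array 1 (others 1022.5 to 1105.5), and on array 2 Rps26 was 15331.7 (others 18156.3 to 18511.2) and Rpl39l 58.1 (others 6.1 to 11.4).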

How the results depend on the processing

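In the knockout tibialis, 1 member (Rps15) was called with all 34 arrays in 1 fit and 1 with a trended, robust variance; the members' median was -0.23 with a common median and -0.07 after cyclic loess. In the knockout gastrocnemius, 1 (Rpl3l) was called with all 34 arrays. In the knockout liver and GSL30 gastrocnemius no alternative gave a call. The median between WT liver and tibialis was -0.35 after quantile normalization, -0.07 with a common median and 0.05 after cyclic loess, and 19 to 26 members were called with each array left out. Between WT gastrocnemius and tibialis, 4 members were called after quantile normalization, 4 after cyclic loess, 4 without the filter, 3 to 8 with each array left out and 1 without the arrays of high hepatocyte signal; the median was -0.28 with a common median and 0.05 after loess. The effect in gastrocnemius minus that in tibialis had a median of 0.35 with a common median and 0.03 after loess, and that in liver minus tibialis 0.18 after loess, with 0 to 1 calls with each array left out. The causes of these changes were not tested.

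Directions of some uncalled members turned under some settings. In tibialis these were Rpl41 (0.07 as the mean of all probe sets), Rps10 (-0.07 with a common median, -0.05 to 0.05 with each array left out), Rpl7l1 (-0.03 after quantile normalization, -0.07 with a common median, -0.02 after loess, -0.01 to 0.07 with each array left out) and Rps25 (-0.03, -0.05, -0.03 and -0.04 to 0.17 in the same order). In the knockout gastrocnemius they were Rpl11 (0.04 with the hepatocyte covariate, 0.07 without the arrays of high hepatocyte signal) and Rps27l (-0.03 without those arrays). In liver they were Rps25 (0.00 with array weights, -0.15 to 0.04 with each array left out), Rps10 (0.06 as the mean of all probe sets, -0.16 to 0.03 with each array left out), Rplp0 (-0.18 to 0.10), Rpl7l1 (-0.07 to 0.02) and Rps6 (-0.01 to 0.38). In GSL30 they were Rps19 (0.15 without the arrays of high hepatocyte signal, -0.20 to 0.01 with each array left out) and Rps27l (-0.14 to 0.09).

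No paired analysis was possible because the labels give the groups no shared replicate numbers. Dim probe sets limit what can be said of Rpl14 and Rpl39l, and of Rps4l in muscle.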
